A study of Caenorhabditis elegans with 8 samples.

Results

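The nlp genes are a family defined by name: 78 of the 46748 gene identifiers in the deposited count table carry a symbol made of nlp- and a number. A gene name table gave 71 of them, and RefSeq genes at the same WBcel235 coordinates gave the other 7, which are nlp-10, nlp-88, nlp-89, nlp-90, nlp-91, nlp-99 and nlp-119. They were measured in messenger RNA of whole Caenorhabditis elegans hermaphrodites of strain N2, the laboratory wild type, with 2 libraries in each of 4 groups. The groups were worms labelled arsenite at an age of 5 days, water at 5 days, arsenite at 1 day, and water at 1 day. The labels attach 100 nM to the arsenite samples and also to the water samples, name no other genotype or agent, and do not say how long the worms were exposed. The 1-day descriptions also carry 24 h without further explanation. Library numbers in the titles run 23 to 26 for the older and 31 to 34 for the younger worms, so any batch tied to these numbers and age cannot be told apart. Whether a group's 2 libraries stem from separate cultures is not stated. Every marker gene used for neurons, epidermis, intestine, body muscle and embryos was above 0 in every group.

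Neuropeptide-like proteins are precursors that proprotein convertases cut into short peptides, which are packed into dense core vesicles and released to act mainly on G protein-coupled receptors. The nlp name covers a mixed family: many members act as neuropeptides in egg laying, sleep, arousal and movement, 1 well known member is a signal from the intestine, and a glycine-rich set that includes nlp-29 is made in the epidermis as antimicrobial peptides. In the epidermis nlp-29 and its neighbours are known to be induced by the fungus Drechmeria coniospora and by wounding, through a p38 kinase cascade that ends in the transcription factor STA-2. Peptide and promoter sequences were not analysed here.

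The 78 genes were spread over all 6 chromosomes, with 22 on X, 18 on V, 12 on IV, 11 on II, 8 on III and 7 on I. On chromosome V, nlp-34, nlp-31, nlp-30, nlp-29, nlp-28 and nlp-27 lie side by side between positions 3978825 and 3989770 of WBcel235, a stretch of 10946 bases with no other annotated gene. Within it nlp-34 lies on the minus strand and the other 5 on the plus strand. The gene nlp-29 (WBGene00003767) occupies positions 3984425 to 3984847. A pair at the other end of the same chromosome, nlp-25 and nlp-26, spans 8355 bases. On X, nlp-45, nlp-22, nlp-23 and nlp-2 span 7167 bases and never exceeded 17 counts in a library, while nlp-119, nlp-90 and nlp-91 span 6633 bases and never exceeded 10 counts. The sources used here give neither the strand setting of the counting nor its treatment of multi-mapping reads. Counts of close relatives such as nlp-27 to nlp-31 may therefore share reads, and so may counts of members whose exons overlap another gene. Among these are nlp-24 with glb-15 over 24 bases, nlp-36 with dars-1 over 11 bases and nlp-99 with nep-2 over 182 bases.

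Libraries held 21598326 to 27317490 counts, of which 5975 to 8768 fell on nlp genes. Levels are given as CPM, the counts of a gene relative to the library total scaled by the TMM method. Levels of different genes are compared only as RPKM, which is CPM per kilobase of exon. Summed over the family, the level was 351 ± 8.05 CPM in arsenite at 5 days, 367 ± 12.2 CPM in water at 5 days, 249.8 ± 1.53 CPM in arsenite at 1 day and 259 ± 8.84 CPM in water at 1 day (SD, n = 2 each). All 4 of the 5-day libraries lay above all 4 of the 1-day libraries in this sum. Within each age both arsenite libraries lay below both water libraries. At 5 days they held 345 and 357 CPM in arsenite and 359 and 376 CPM in water. At 1 day they held 251 and 249 CPM in arsenite and 253 and 265 CPM in water. With nlp-40 left out, arsenite and water overlapped at each age. The sums were not tested.

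Per length of exon, nlp-40 was the most abundant member in every group. It encodes a peptide released by the intestine that relays the defecation pacemaker to neurons through the receptor AEX-2. Its level was 149 ± 1.24 RPKM in arsenite at 5 days, 151 ± 3.04 RPKM in water at 5 days, 127 ± 2.81 RPKM in arsenite at 1 day and 134 ± 4.61 RPKM in water at 1 day (SD, n = 2 each). The next places changed hands between the ages. At 5 days nlp-39 came second, at 42.5 ± 4.94 RPKM in arsenite and 51.4 ± 0.0361 RPKM in water, and at 1 day it held place 71 in arsenite and 54 in water of 78. At 1 day nlp-24 came second, at 25.3 ± 1.27 RPKM in arsenite and 25.2 ± 3.01 RPKM in water, and at 5 days it held place 22 in arsenite and 17 in water. At 5 days in arsenite, nlp-99, nlp-36 and nlp-27 followed at 34.9 ± 3.58, 34.4 ± 2.68 and 32 ± 12 RPKM, and these neighbours did not differ beyond their spread. In water at 5 days nlp-99, nlp-36 and nlp-49 stood at 38.1 ± 2.0, 34.5 ± 0.778 and 29.9 ± 0.451 RPKM.

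The comparison of 5 days with 1 day asked how the family differs between the ages of these worms. At 5 days most calls among the tested nlp members were higher. Of the 65 members with enough counts to be tested, 32 were higher and 3 lower in arsenite, and 38 were higher and 3 lower in water. The test was edgeR's quasi-likelihood test, with calls at an adjusted p under 0.05 over 14449 genes. Of all genes 59.6% were called in arsenite, 30.3% higher and 29.4% lower, and 60.1% in water, 30.1% higher and 30% lower. The members' share of calls in either direction, 53.8% in arsenite and 63.1% in water, was near this background. Their share of higher calls, 49.2% in arsenite and 58.5% in water, lay above it, and their share of lower calls, 4.62% in each treatment, below it. The median log2 fold change of the tested members was 0.68 in arsenite and 0.76 in water, against 0.01 over all genes in both. Positive fold changes were found for 55 of 65 members in arsenite and 58 of 65 in water, against 51% and 50.4% of all genes. These counts describe the members that passed the filter on low counts and not the whole family, since a gene near the limit can pass through the age at which it is higher. Of the 65, 47 reached the filter's level of 0.415 CPM at both ages, 17 at 5 days only and nlp-4 at 1 day only. Among the 47, 24 were higher and 2 lower in arsenite, and 26 higher and 2 lower in water. Among the 28 members that averaged under 1 CPM over the 8 libraries, 11 were higher and 1 lower in arsenite, and 15 higher and 1 lower in water.

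**Figure D1:**
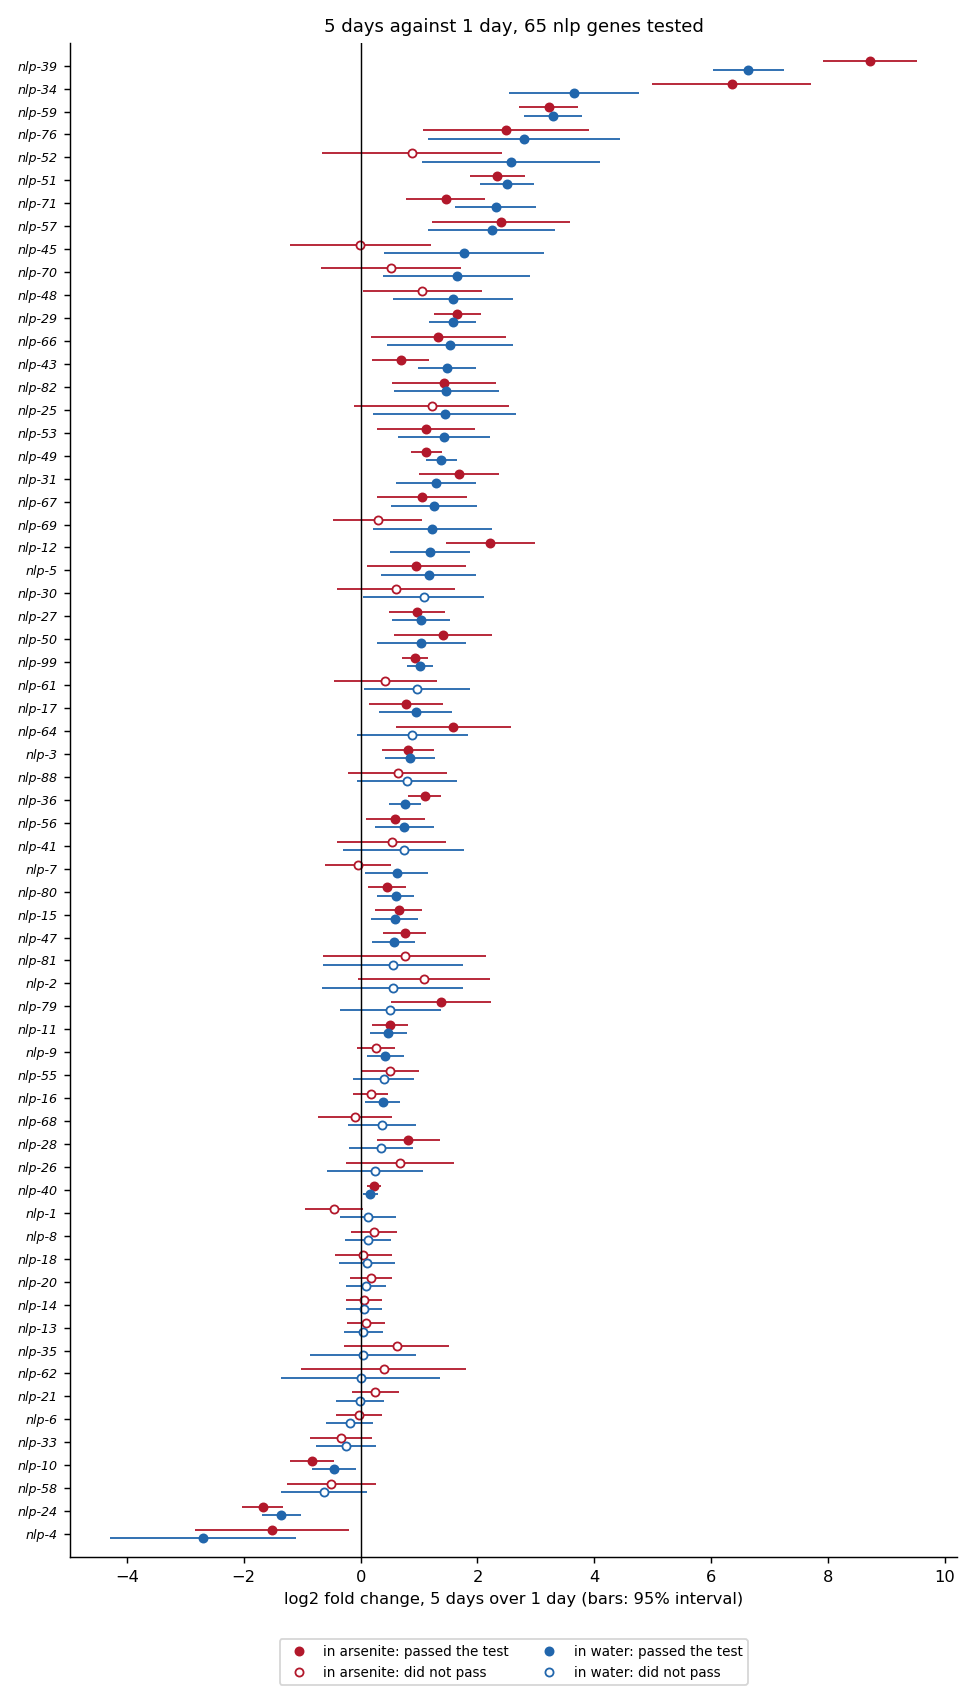
Log2 fold change of 5 days over 1 day for each of the 65 nlp genes tested, in arsenite (red) and in water (blue), with bars for the 95% interval; filled points passed the test and open points did not. Genes are ordered by the change in water: nlp-39 and nlp-34 stand far to the right, 58 of 65 points in water lie right of 0, and nlp-24 and nlp-4 lie furthest to the left.

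Calls were made in both treatments for 32 members, in arsenite alone for 3 and in water alone for 9, with none in opposite directions. Over the 65 members the fold changes in arsenite and in water, which share no library, correlated at 0.89 (Pearson) and 0.783 (Spearman), a description across genes. The 65 include the 17 that reached the filter's level of 0.415 CPM at 5 days only, among them nlp-39 and nlp-34. No correlation over all genes was set beside these values. For no member did the test of the difference between the 2 age effects pass (edgeR's quasi-likelihood test, smallest adjusted p = 0.9999), with 2 members at an unadjusted p under 0.05. DESeq2 and limma voom also called none. The number called depended on single libraries and on the tool. Without the first 1-day water library 25 members passed in water, 24 higher and 1 lower. DESeq2 called 23 members in arsenite, 21 higher and 2 lower, and 25 in water, 23 higher and 2 lower. Over all genes DESeq2 called 7358 in arsenite and 7414 in water, against 8616 and 8685 with edgeR. Passing in both treatments under all 13 alternatives were 14 members: nlp-3, nlp-27, nlp-29, nlp-31, nlp-34, nlp-36, nlp-39, nlp-49, nlp-51, nlp-57, nlp-59, nlp-71 and nlp-99, which were higher at 5 days, and nlp-24, which was lower. Of these, nlp-34, nlp-39 and nlp-57 reached the filter's level of 0.415 CPM at 5 days only, so their calls could hardly go the other way.

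Among the epidermal antimicrobial genes, most of the 6 neighbours on chromosome V were higher at 5 days and nlp-24 was lower. Of the 6, 5 passed as higher in arsenite and 4 in water, against 30.3% and 30.1% of all genes, and none was lower. Their median log2 fold change was 1.31 in arsenite and 1.19 in water. The count and the median include nlp-34 and nlp-30, which reached the filter's level of 0.415 CPM at 5 days only. These genes could be tested only through the age at which they were higher. Summed over the 6 genes, the level was 30.01 ± 8.5 CPM at 5 days and 12.5 ± 1.62 CPM at 1 day in arsenite, and 27.5 ± 2.05 CPM at 5 days and 12.5 ± 1.66 CPM at 1 day in water (SD, n = 2 each).

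The antimicrobial peptide gene nlp-29, a standard reporter of epidermal infection and wounding, stood at 9.94 and 8.06 CPM in arsenite at 5 days and 3.04 and 2.66 CPM in arsenite at 1 day. In water its libraries held 9.63 and 9.65 CPM at 5 days and 2.41 and 4.0 CPM at 1 day. Every 5-day library was above every 1-day library. The log2 fold change was 1.66 in arsenite (SE 0.19, edgeR adjusted p = 1.71e-07) and 1.57 in water (SE 0.19, edgeR adjusted p = 2.81e-07), or 3.16-fold and 2.98-fold.

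The neighbouring gene nlp-31, whose peptide is known to be active against microbes in vitro, had 3.43 and 1.98 CPM in the 5-day and 1.01 and 0.675 CPM in the 1-day arsenite libraries. In water it had 2.75 and 1.84 CPM at 5 days and 1.1 and 0.785 CPM at 1 day. The ages did not overlap, and the log2 fold change was 1.69 in arsenite (SE 0.33, edgeR adjusted p = 0.000141) and 1.29 in water (SE 0.33, edgeR adjusted p = 0.00199). For nlp-27, at the other end of the array, the values were 12.8 and 7.43 CPM in the 5-day and 5.58 and 4.8 CPM in the 1-day arsenite libraries. Its water libraries held 9.54 and 8.58 CPM at 5 days and 3.93 and 4.86 CPM at 1 day. Its libraries were again apart by age, with a log2 fold change of 0.97 in arsenite (edgeR adjusted p = 0.00189) and 1.04 in water (edgeR adjusted p = 0.00147).

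The minus-strand gene nlp-34 was close to absent at 1 day. It had 52 and 40 counts in the 5-day and 0 and 1 counts in the 1-day arsenite libraries. Water libraries had 24 and 38 at 5 days and 3 and 2 at 1 day. The ratio of 5 days to 1 day was 103 (95% interval 18 to 4114) in arsenite and 13.2 (95% interval 5.37 to 42.1) in water, with exact Poisson intervals that cover counting error only, and the gene passed the test in both (edgeR adjusted p = 1.89e-08 in arsenite and 3.69e-06 in water).

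The remaining pair of the array was less clear. For nlp-28 the libraries held 7.07 and 4.28 CPM in the 5-day and 3.63 and 2.85 CPM in the 1-day arsenite libraries. The water values were 5.54 and 3.52 CPM at 5 days and 3.51 and 3.62 CPM at 1 day. It passed in arsenite (log2 fold change 0.82, edgeR adjusted p = 0.0116) but not in water, where the ages overlapped (0.35, edgeR adjusted p = 0.264). The arsenite call was lost without the first 5-day arsenite library (log2 fold change 0.39, edgeR adjusted p = 0.227) and without the second 1-day arsenite library (0.65, edgeR adjusted p = 0.109), while without the second 5-day water library nlp-28 passed in water too (0.63, edgeR adjusted p = 0.0390). The low gene nlp-30 had 16 and 10 counts in the 5-day and 10 and 9 counts in the 1-day arsenite libraries. In water there were 11 and 19 at 5 days and 6 and 9 at 1 day. Its ages did not overlap, yet it passed in neither treatment (log2 fold change 0.61 in arsenite, edgeR adjusted p = 0.295, and 1.08 in water, edgeR adjusted p = 0.0661). In water it passed without the first 5-day library (1.44, edgeR adjusted p = 0.0366).

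Within the 5-day groups the first library of each treatment, numbered 24 (arsenite) and 23 (water), was the higher one for nlp-27, nlp-28 and nlp-31. Libraries 24 and 23 held 173 and 133 counts of nlp-28, against 95 and 82 in libraries 26 (arsenite) and 25 (water). For nlp-31 they held 84 and 66 counts, against 44 and 43. All 4 of these libraries exceeded every 1-day library for nlp-27 and nlp-31.

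Elsewhere in the genome, nlp-24, a glycine-rich relative that also encodes an opioid-like peptide acting through NPR-17, went the other way. It stood at 2.9 and 3.06 CPM in the 5-day and 9.87 and 9.19 CPM in the 1-day arsenite libraries. In the water libraries it stood at 3.33 and 4.12 CPM at 5 days and 8.71 and 10.3 CPM at 1 day. All 4 of the 5-day libraries lay below all 4 of the 1-day libraries. The log2 fold change was -1.68 in arsenite (SE 0.17, edgeR adjusted p = 1.16e-08) and -1.36 in water (SE 0.16, edgeR adjusted p = 1.98e-07), or 3.19-fold and 2.56-fold lower at 5 days.

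The glycine-rich relatives nlp-25, nlp-26 and nlp-33 gave no call that held under every alternative. For nlp-33 the libraries held 2.78 and 2.97 CPM in the 5-day and 4.68 and 2.59 CPM in the 1-day arsenite libraries. For water the libraries held 2.75 and 3.73 CPM at 5 days and 3.51 and 4.19 CPM at 1 day. The ages overlapped in both treatments and neither comparison passed (log2 fold change -0.34 in arsenite and -0.25 in water), although without the second 1-day arsenite library the arsenite value was -0.71 and passed (edgeR adjusted p = 0.0234), and without the first it was 0.15. The pair nlp-25 and nlp-26 was low, with 2 to 32 counts in each library. Only at 5 days did nlp-25 reach the filter's level of 0.415 CPM. In water nlp-25 had 13 and 13 counts at 5 days and 8 and 2 counts at 1 day, a ratio of 2.77 (95% interval 1.29 to 6.44), and it passed (edgeR adjusted p = 0.0398), but not under 6 of 13 alternatives. Without the second 1-day water library its log2 fold change was 0.69 (edgeR adjusted p = 0.397), and without the first or second 5-day water library or either 1-day arsenite library the edgeR adjusted p was 0.0996, 0.109, 0.0539 and 0.0537. In arsenite it had 11 and 8 counts at 5 days and 5 and 4 counts at 1 day and did not pass (ratio 2.37, 95% interval 1.02 to 5.93, edgeR adjusted p = 0.107). For nlp-26 the counts were 17 and 23 in arsenite at 5 days and 18 and 10 in arsenite at 1 day, and 16 and 32 in water at 5 days and 24 and 19 in water at 1 day, and the ages overlapped. The last of the set, nlp-32, had too few counts to be tested, with 1 and 2 in the 5-day arsenite libraries and none in the other 6, which allows up to 3 counts in each.

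**Figure D2:**
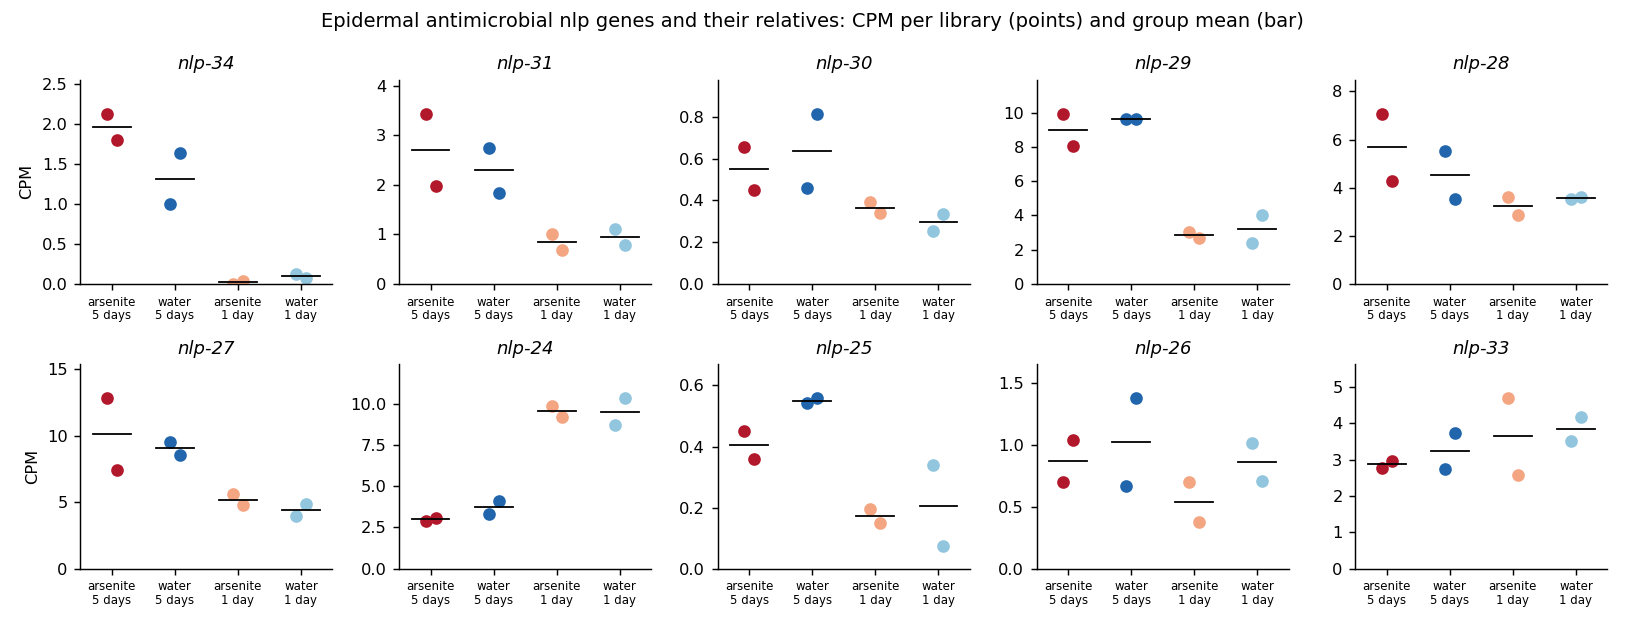
CPM of the 10 tested epidermal antimicrobial nlp genes and relatives in each library (points) with the group mean (bar), for arsenite and water at 5 days and at 1 day; each panel has its own axis from 0. The 5-day points lie above the 1-day points for nlp-34, nlp-31, nlp-30, nlp-29 and nlp-27, below them for nlp-24, and overlap them for nlp-26 and nlp-33.

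Most tested caenacins, a sister family of epidermal antimicrobial peptides, were also called higher at 5 days. Of 11 listed genes 6 could be tested, and 5 were higher and none lower in each treatment. Of all genes 30.3% were higher in arsenite and 30.1% in water. At 1 day cnc-2, cnc-4 and cnc-6 averaged under the filter's level of 0.415 CPM in both treatments. They could be tested only through the 5-day libraries, where they were higher, so their calls could hardly go the other way. No median is given, because cnc-6 had no counts at 1 day in either treatment and cnc-2 none at 1 day in arsenite. Summed over the 11, the arsenite libraries held 20.6 and 13.6 CPM at 5 days and 4.53 and 4.35 CPM at 1 day. Water libraries held 20.3 and 13.6 CPM at 5 days and 4.65 and 4.82 CPM at 1 day, so the first library was again the higher one at 5 days in each treatment. The gene cnc-4 averaged 7.25 ± 2.23 CPM at 5 days and 0.17 ± 0.131 CPM at 1 day in arsenite, and 7.13 ± 3.53 CPM at 5 days and 0.239 ± 0.0209 CPM at 1 day in water (SD, n = 2 each). Smaller rises were those of cnc-8, with log2 fold changes of 1.05 and 0.74 in arsenite and water (edgeR adjusted p = 0.00226 and 0.0213), and cnc-3, with 0.66 and 0.62 (edgeR adjusted p = 0.0203 and 0.0325).

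Genes of the signalling route to nlp-29 were mostly lower at 5 days. Of 15 listed genes, 3 were higher and 10 lower in arsenite, and 2 were higher and 9 lower in water. Of all genes 30.3% were higher and 29.4% lower in arsenite, and 30.1% higher and 30% lower in water. The median log2 fold change of the list was -0.26 in arsenite and -0.34 in water. The p38 kinase gene pmk-1 fell, with log2 fold changes of -0.34 in arsenite and -0.52 in water (edgeR adjusted p = 0.00684 and 0.000184). So did the epidermal GATA factor gene elt-3, at -1.51 and -1.43 (edgeR adjusted p = 1.89e-10 and 4.59e-10). The gene of the STAT factor STA-2 was lower too (-0.52 in arsenite and -0.45 in water, edgeR adjusted p = 0.00733 and 0.0164). In water the sta-2 call was lost with DESeq2 (adjusted p = 0.0562), without the second 5-day water library (-0.38, edgeR adjusted p = 0.0981) and without the second 1-day water library (-0.39, edgeR adjusted p = 0.120). Standing against them was cebp-1, the gene of a bZIP factor linked to the kinase-like protein NIPI-3. It averaged 23.1 ± 2.6 CPM at 5 days and 5.1 ± 0.574 CPM at 1 day in arsenite, and 21.9 ± 2.02 CPM at 5 days and 5.09 ± 0.565 CPM at 1 day in water (SD, n = 2 each). The gene rose by 2.18 in arsenite and 2.10 in water on the log2 scale (edgeR adjusted p = 2.39e-12 and 5.54e-12). Changes of nipi-3 itself were small but passed, at 0.27 in arsenite and 0.27 in water (edgeR adjusted p = 0.00218 and 0.00193), while dcar-1, the gene of the receptor upstream of the cascade, did not pass (0.04 in arsenite and 0.10 in water).

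Markers of the epidermis were mostly lower at 5 days. Of all genes 29.4% were called lower in arsenite and 30% in water. Of 12 epidermal markers, which include elt-3 and dcar-1 of the signalling list, none was higher in either treatment. In arsenite 9 were lower and in water 8, with a median of -0.85 in arsenite and -0.83 in water. Summed, they held 336 to 338 CPM at 5 days and 1055 to 1129.5 CPM at 1 day in arsenite, and 346 to 354 CPM at 5 days and 1061 to 1100.0 CPM at 1 day in water. The adult cuticle collagen gene col-19 fell furthest of the 12 (log2 fold change -4.69 in arsenite and -4.57 in water). Most of the drop in the sum came from col-19 and mup-4. In arsenite col-19 averaged 18.5 ± 1.93 CPM at 5 days and 479 ± 41.5 CPM at 1 day, and mup-4 70.9 ± 10.6 and 272 ± 4.55 CPM. In water col-19 averaged 20.3 ± 1.83 and 485 ± 33.1 CPM, and mup-4 69.4 ± 1.93 and 258 ± 14.1 CPM (SD, n = 2 each). The markers lin-26, tsp-15 and dcar-1 passed in neither treatment. In whole worms fewer cells of a type and less RNA per cell cannot be told apart. The part of these markers' fall in the nlp levels was not tested.

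Outside the epidermal set, the largest difference with age belonged to nlp-39, a gene on chromosome I with a single exon of 240 bases. It had 270 and 208 counts in the 5-day and 1 and 0 counts in the 1-day arsenite libraries. The water counts were 296 and 288 at 5 days and 3 and 3 at 1 day. At 1 day every library held 3 counts or fewer. The gene nlp-39 reached the filter's level of 0.415 CPM at 5 days only, so it could be tested only through the age at which it was higher. The ratio was 535 (95% interval 95.6 to 21190) in arsenite and 103.7 (95% interval 47.4 to 284) in water, again with counting error only (edgeR adjusted p = 5.10e-15 and 4.33e-15).

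Of the other members above 1 CPM, nlp-59, nlp-51 and nlp-71 had the largest rises in water. For nlp-59 the libraries held 8.18 and 6.84 CPM in the 5-day and 0.741 and 0.863 CPM in the 1-day arsenite libraries. In water it had 9.84 and 6.95 CPM at 5 days and 0.761 and 0.934 CPM at 1 day. The ages were far apart, with 9.31-fold in arsenite and 9.8-fold in water (edgeR adjusted p = 8.00e-11 and 4.19e-11). For nlp-51 the values were 5.44 and 4.86 CPM in the 5-day and 0.897 and 1.13 CPM in the 1-day arsenite libraries. Its water libraries held 5.54 and 6.17 CPM at 5 days and 1.1 and 0.972 CPM at 1 day. The rise was 5.07-fold in arsenite and 5.65-fold in water, without overlap (edgeR adjusted p = 5.41e-09 and 1.52e-09). For nlp-71 they were 1.59 and 1.58 CPM in the 5-day and 0.585 and 0.563 CPM in the 1-day arsenite libraries. The water values were 2.29 and 1.89 CPM at 5 days and 0.507 and 0.336 CPM at 1 day. Its rise was 2.75-fold in arsenite and 4.96-fold in water (edgeR adjusted p = 0.000569 and 3.22e-06), and the difference between these age effects did not pass (edgeR adjusted p = 0.9999).

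The rise of nlp-43 in water held under every alternative. It had 2.78 and 3.02 CPM in the 5-day and 2.03 and 1.58 CPM in the 1-day arsenite libraries. In the water libraries it stood at 3.46 and 3.77 CPM at 5 days and 1.52 and 1.08 CPM at 1 day. The log2 fold change was 0.68 in arsenite (edgeR adjusted p = 0.0157) and 1.48 in water (edgeR adjusted p = 1.57e-05). In arsenite the nlp-43 call was lost with DESeq2 (adjusted p = 0.0869), without the second 5-day arsenite library (0.61, edgeR adjusted p = 0.0774) and without the second 1-day arsenite library (0.51, edgeR adjusted p = 0.149).

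Lower counts stood behind nlp-53, nlp-67, nlp-5 and nlp-69. In water nlp-53 had 25 and 36 counts at 5 days and 13 and 11 counts at 1 day (log2 fold change 1.43), and in arsenite 23 and 20 counts at 5 days and 11 and 11 counts at 1 day (1.12). Only at 5 days, where it was higher, did nlp-53 reach the filter's level of 0.415 CPM. The counts of nlp-67 were 33 and 30 at 5 days and 10 and 18 at 1 day in water (1.26), and 25 and 27 at 5 days and 15 and 13 at 1 day in arsenite (1.05). Both genes passed in both treatments without overlap of the ages, but with calls that rested on single libraries or on the tool. With DESeq2 neither gene passed in arsenite (adjusted p = 0.1145 for nlp-53 and 0.1069 for nlp-67). In water the nlp-53 call was lost without the second 5-day library (edgeR adjusted p = 0.0504) and the nlp-67 call without the first 1-day library (0.98, edgeR adjusted p = 0.0593). In arsenite nlp-53 did not pass without any single one of the 4 arsenite libraries (edgeR adjusted p = 0.0794, 0.0554, 0.0707 and 0.0879), nor nlp-67 without the second library at 5 days or at 1 day (edgeR adjusted p = 0.0935 and 0.101). For nlp-5, with 31 and 28 counts at 5 days and 9 and 19 at 1 day in water and 33 and 16 at 5 days and 15 and 13 at 1 day in arsenite, the log2 fold change was 1.17 in water and 0.96 in arsenite. With DESeq2 nlp-5 passed in neither treatment (adjusted p = 0.0823 in water and 0.1785 in arsenite), nor with limma voom in arsenite (adjusted p = 0.0777). Its calls ended without the first 5-day water library (edgeR adjusted p = 0.0544), without the first 1-day water library (0.81, edgeR adjusted p = 0.145), and, in arsenite, without the first 5-day library (0.41, edgeR adjusted p = 0.521) or either 1-day library (edgeR adjusted p = 0.0882 and 0.184).

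Several of the most abundant members rose in every alternative. For nlp-49, whose peptide acts through the receptor SEB-3 in arousal, the libraries held 14.3 and 17.1 CPM in the 5-day and 6.91 and 7.47 CPM in the 1-day arsenite libraries. For water the libraries held 17.8 and 18.1 CPM at 5 days and 7.1 and 6.65 CPM at 1 day. The ages did not overlap, at 2.18-fold in arsenite and 2.61-fold in water (edgeR adjusted p = 8.66e-08 and 2.97e-09). For nlp-99 they held 21.9 and 25.3 CPM in the 5-day and 12.8 and 11.9 CPM in the 1-day arsenite libraries. In water it had 24.9 and 26.8 CPM at 5 days and 13.2 and 12.5 CPM at 1 day. This gene rose 1.92-fold in arsenite and 2.02-fold in water (edgeR adjusted p = 1.03e-07 and 2.84e-08), and reads of nep-2 may be among its counts. For nlp-36 the values were 11.4 and 12.8 CPM in the 5-day and 5.85 and 5.44 CPM in the 1-day arsenite libraries. Its water libraries held 12 and 12.3 CPM at 5 days and 6.89 and 7.44 CPM at 1 day. Again there was no overlap (log2 fold change 1.10 and 0.76, edgeR adjusted p = 3.39e-07 and 3.79e-05).

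The gene nlp-3, whose peptides are released from the HSN neurons and promote egg laying, had 4.54 and 4.5 CPM in the 5-day and 2.85 and 2.29 CPM in the 1-day arsenite libraries. The water values were 4.58 and 6.13 CPM at 5 days and 2.45 and 3.48 CPM at 1 day. Its ages did not overlap (log2 fold change 0.82 and 0.84, edgeR adjusted p = 0.00234 and 0.00127). The gene nlp-7, whose peptides inhibit egg laying, had 1.51 and 2.25 CPM in the 5-day and 2.15 and 1.73 CPM in the 1-day arsenite libraries. In the water libraries it stood at 3.29 and 2.27 CPM at 5 days and 1.99 and 1.64 CPM at 1 day. The ages overlapped in arsenite (log2 fold change -0.05, edgeR adjusted p = 0.889). In water nlp-7 passed (0.62, edgeR adjusted p = 0.0437), but not without the first 5-day library (0.33, edgeR adjusted p = 0.403), nor without the first or second 1-day library (0.76 and 0.48, edgeR adjusted p = 0.0641 and 0.230), nor with DESeq2 (adjusted p = 0.161) or limma voom (adjusted p = 0.0611).

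The cholecystokinin-like gene nlp-12, made in the stretch-sensitive neuron DVA and read by the receptors CKR-1 and CKR-2, had 1.55 and 2.43 CPM in the 5-day and 0.312 and 0.525 CPM in the 1-day arsenite libraries. For water the libraries held 1.79 and 1.93 CPM at 5 days and 1.01 and 0.635 CPM at 1 day. The ages did not overlap, and the log2 fold change was 2.22 in arsenite (edgeR adjusted p = 1.73e-05) and 1.18 in water (edgeR adjusted p = 0.0037). The water call was lost without the second 1-day water library (0.87, edgeR adjusted p = 0.0765), and the difference between the age effects did not pass (edgeR adjusted p = 0.9999). The gene nlp-47, which encodes a peptide related to gonadotropin-releasing and adipokinetic hormones, had 5.6 and 5.09 CPM in the 5-day and 2.93 and 3.41 CPM in the 1-day arsenite libraries. In water it had 5.88 and 5.66 CPM at 5 days and 3.59 and 4.19 CPM at 1 day. It was higher at 5 days in both treatments (log2 fold change 0.75 and 0.56, edgeR adjusted p = 0.00101 and 0.00779), though not in water without the first 1-day water library (0.46, edgeR adjusted p = 0.0839).

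The intestinal gene nlp-40 was higher at 5 days by a small amount. Its libraries held 107 and 106 CPM in the 5-day and 89.3 and 92.2 CPM in the 1-day arsenite libraries. Its water libraries held 109 and 106 CPM at 5 days and 93.6 and 98.3 CPM at 1 day. All of the 5-day libraries were above all of the 1-day libraries, by a log2 fold change of 0.23 in arsenite (SE 0.06, edgeR adjusted p = 0.00233) and 0.17 in water (SE 0.06, edgeR adjusted p = 0.0207). In water it did not pass without the first 5-day library (0.14, edgeR adjusted p = 0.0862) or the first 1-day library (0.13, edgeR adjusted p = 0.160). Between the same ages 7 of 9 intestinal markers were lower and 1 higher in each treatment. Of all genes 30.3% were higher and 29.4% lower in arsenite, and 30.1% higher and 30% lower in water. The median log2 fold change of the 9 markers was -1.82 in arsenite and -1.75 in water. Summed, they held 872 to 1036 CPM at 5 days and 3162 to 3427 CPM at 1 day in arsenite, and 928 to 1093 CPM at 5 days and 3265 to 3506 CPM at 1 day in water. The part of these markers in the nlp-40 level was not tested.

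The sleep-linked genes nlp-8 and nlp-14 did not pass. For nlp-8, a sleep-promoting gene of the ALA neuron, the libraries held 4.21 and 5.4 CPM in the 5-day and 3.55 and 4.62 CPM in the 1-day arsenite libraries. The water values were 5.13 and 4.42 CPM at 5 days and 4.1 and 4.6 CPM at 1 day. For nlp-14, an orcokinin-like gene also linked to sleep, they held 6.58 and 7.25 CPM in the 5-day and 6.67 and 6.57 CPM in the 1-day arsenite libraries. In the water libraries it stood at 7.0 and 6.82 CPM at 5 days and 6.09 and 7.14 CPM at 1 day. The ages overlapped for both. The 95% intervals of their log2 fold changes were -0.17 to 0.62 in arsenite and -0.26 to 0.52 in water for nlp-8, and -0.25 to 0.37 in arsenite and -0.25 to 0.37 in water for nlp-14. Another pair that did not pass was nlp-18 and nlp-20. nlp-18 had 3.03 and 2.66 CPM in the 5-day and 2.42 and 3.08 CPM in the 1-day arsenite libraries. For water the libraries held 2.5 and 4.07 CPM at 5 days and 2.75 and 3.33 CPM at 1 day. Its intervals were -0.44 to 0.54 in arsenite and -0.37 to 0.59 in water. nlp-20 had 4.87 and 5.76 CPM in the 5-day and 4.37 and 4.99 CPM in the 1-day arsenite libraries. In water it had 6.17 and 5.27 CPM at 5 days and 5.5 and 5.23 CPM at 1 day. Intervals of -0.17 to 0.53 in arsenite and -0.25 to 0.44 in water went with these values.

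For nlp-1, a peptide gene of the olfactory neuron AWC that signals to the receptor NPR-11, the libraries held 1.68 and 1.89 CPM in the 5-day and 2.69 and 2.21 CPM in the 1-day arsenite libraries. Its water libraries held 2.38 and 2.53 CPM at 5 days and 1.99 and 2.47 CPM at 1 day. The ages were apart in arsenite, with 5 days below, and overlapped in water, and neither comparison passed (log2 fold change -0.46 and 0.13, edgeR adjusted p = 0.102 and 0.639). The second orcokinin-like gene, nlp-15, passed as higher in both treatments. It had 4.74 and 7.38 CPM in the 5-day and 4.06 and 3.64 CPM in the 1-day arsenite libraries. The water values were 5.75 and 6.35 CPM at 5 days and 4.4 and 3.7 CPM at 1 day. The log2 fold change was 0.65 in arsenite and 0.58 in water (edgeR adjusted p = 0.00692 and 0.0138). With DESeq2 nlp-15 did not pass in water (adjusted p = 0.0503). The call was lost in arsenite without the second library at 5 days (0.29, edgeR adjusted p = 0.274) or at 1 day (0.57, edgeR adjusted p = 0.0664), and in water without the second library at 5 days (0.51, edgeR adjusted p = 0.0718) or at 1 day (0.46, edgeR adjusted p = 0.132). nlp-9 had 5.85 and 7.11 CPM in the 5-day and 5.31 and 5.44 CPM in the 1-day arsenite libraries. In the water libraries it stood at 7.04 and 8.15 CPM at 5 days and 5.67 and 5.64 CPM at 1 day. With DESeq2 nlp-9 did not pass in water (adjusted p = 0.086). Its call in water (0.42, edgeR adjusted p = 0.0227) was lost without the second 5-day library (0.32, edgeR adjusted p = 0.166) or either 1-day library (edgeR adjusted p = 0.0852 and 0.0953), and it did not pass in arsenite (0.27, edgeR adjusted p = 0.155).

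Besides nlp-24, the members called lower at 5 days were nlp-10 and nlp-4. The gene nlp-10 had 2.82 and 3.69 CPM in the 5-day and 6.13 and 5.44 CPM in the 1-day arsenite libraries. For water the libraries held 3.71 and 4.33 CPM at 5 days and 5.24 and 5.79 CPM at 1 day. With DESeq2 nlp-10 did not pass in water (adjusted p = 0.1085). Its 5-day libraries lay below the 1-day ones in both treatments (log2 fold change -0.83 and -0.46, edgeR adjusted p = 0.00050 and 0.0323), though in water it did not pass without the first 5-day library (-0.35, edgeR adjusted p = 0.176) or the first or second 1-day library (-0.53 and -0.39, edgeR adjusted p = 0.0542 and 0.172). Counts of nlp-4 were few, at 5 and 2 in arsenite at 5 days and 11 and 12 in arsenite at 1 day, and 2 and 1 in water at 5 days and 13 and 9 in water at 1 day. Only at 1 day, where it was higher, did nlp-4 reach the filter's level of 0.415 CPM. The ratio of 5 days to 1 day was 0.341 (95% interval 0.123 to 0.821) in arsenite and 0.145 (95% interval 0.0278 to 0.484) in water (edgeR adjusted p = 0.0434 and 0.00431). The arsenite call held in 5 of 13 alternatives, with adjusted p up to 0.229 without the second 5-day arsenite library (log2 fold change -1.10), and the water call was lost without the first 1-day water library (-2.32, edgeR adjusted p = 0.0520).

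**Figure D3:**
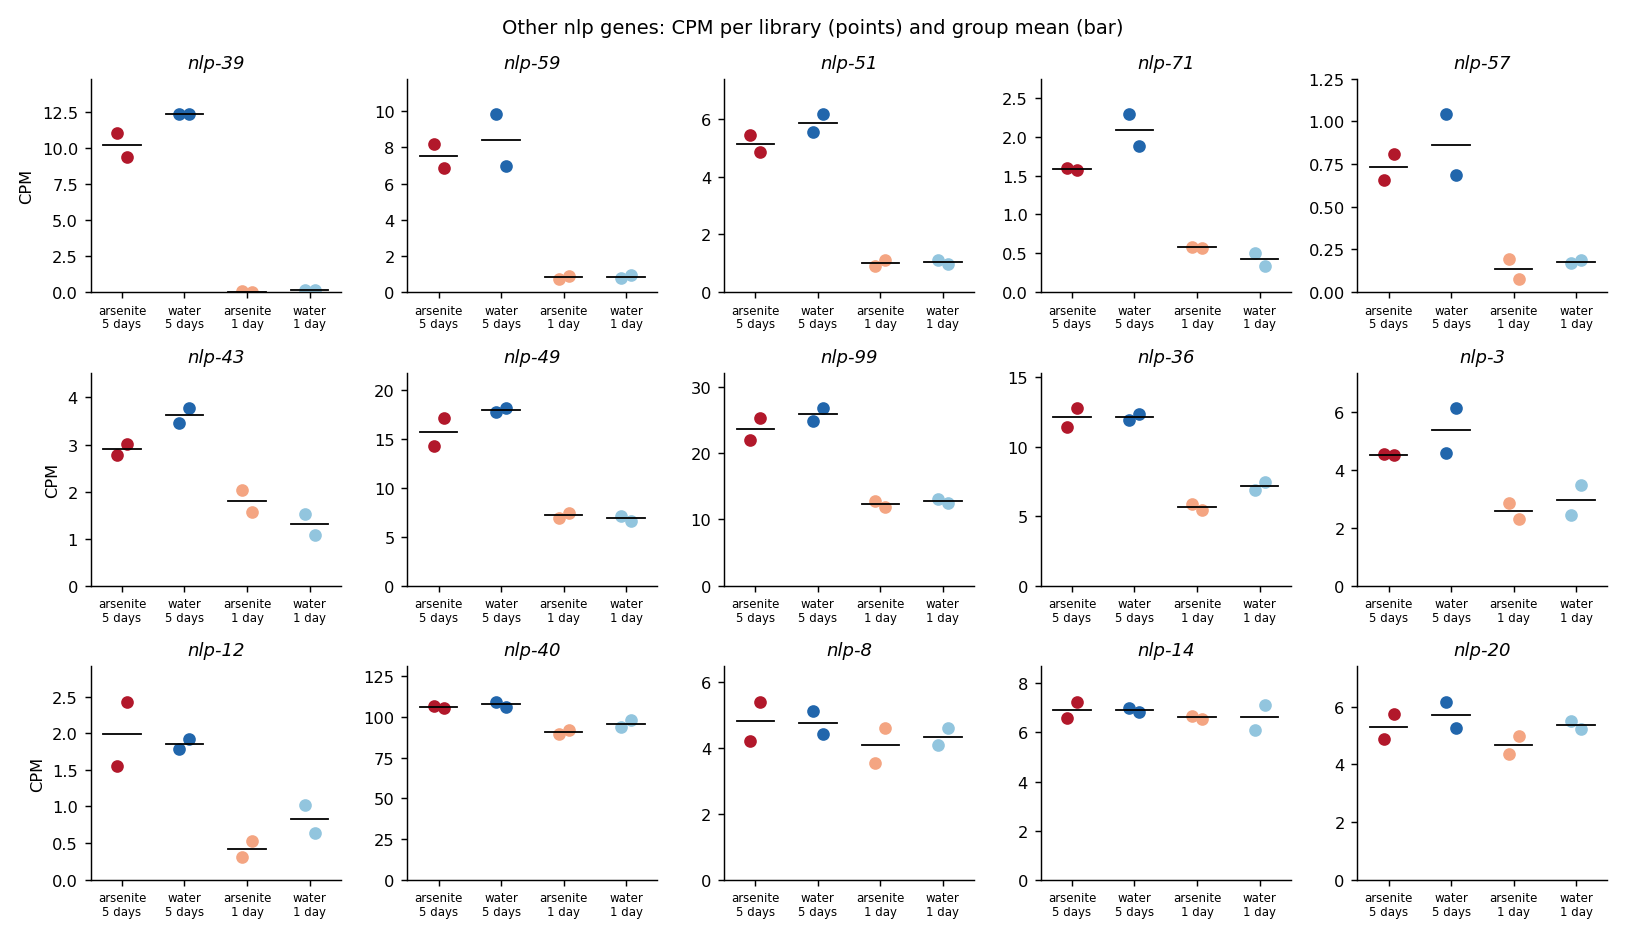
CPM of 15 other nlp genes in each library (points) with the group mean (bar), for arsenite and water at 5 days and at 1 day; each panel has its own axis from 0. From nlp-39 to nlp-40 every 5-day point lies above every 1-day point, whereas the points of nlp-8, nlp-14 and nlp-20 overlap between the ages.

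The machinery that makes nlp peptides did not move as one. Of 15 genes of neuropeptide processing and release, 4 were higher and 7 lower in arsenite and 6 were higher and 6 lower in water. Over all genes the shares were 30.3% higher and 29.4% lower in arsenite, and 30.1% higher and 30% lower in water. The medians of the list were -0.17 in arsenite and -0.09 in water. The amidation gene pghm-1 rose by 0.48 in arsenite and 0.60 in water on the log2 scale (edgeR adjusted p = 0.00138 and 0.000144), and sbt-1, which encodes a chaperone of the convertase EGL-3, rose by 0.35 and 0.49 (edgeR adjusted p = 0.00336 and 0.000139). The gene of EGL-3 itself passed in water alone (0.15 in arsenite and 0.31 in water, edgeR adjusted p = 0.111 and 0.0025). The convertase gene aex-5, known for its part in the defecation cycle, fell (-1.38 in arsenite and -1.48 in water, edgeR adjusted p = 5.72e-10 and 1.94e-10). So did kpc-1 (-0.45 and -0.58, edgeR adjusted p = 0.000143 and 7.53e-06).

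Among 10 tested receptors paired with nlp peptides, 2 were higher and 2 lower in arsenite and 1 was higher and 2 lower in water. The shares over all genes were 30.3% higher and 29.4% lower in arsenite, and 30.1% higher and 30% lower in water. The receptor gene npr-11, paired with nlp-1, fell in both treatments (log2 fold change -1.72 in arsenite and -2.14 in water, edgeR adjusted p = 0.00401 and 0.00113). The gene of NPR-12, the neuronal receptor of NLP-29, was lower in water (-1.04, edgeR adjusted p = 0.0216) and did not pass in arsenite (-0.60, edgeR adjusted p = 0.146). That water call was lost with DESeq2 (adjusted p = 0.0909), without the second 5-day water library (-0.54, edgeR adjusted p = 0.274) and without the first or second 1-day water library (-0.99 and -1.09, edgeR adjusted p = 0.0814 and 0.0594).

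Pan-neuronal markers were mixed, and the direction of their sum rested on snb-1, the synaptobrevin gene. As background for each marker count here, 30.3% of all genes were higher and 29.4% lower in arsenite, and 30.1% and 30% in water. Of 12 markers, 2 were higher and 4 lower in arsenite, and 3 were higher and 3 lower in water, with medians of -0.14 in arsenite and -0.01 in water. Their sum was 433 to 459 CPM at 5 days and 335 to 349 CPM at 1 day in arsenite, and 459 to 467 CPM at 5 days and 325 to 344 CPM at 1 day in water. Of the 12, snb-1 had the largest rise (1.04 in arsenite and 1.14 in water, edgeR adjusted p = 7.38e-13 and 1.70e-13). Without snb-1, a sum added after seeing the data, the other 11 markers were lower at 5 days, at 182 to 199 CPM at 5 days and 216 to 220 CPM at 1 day in arsenite, and at 187 to 199.5 CPM at 5 days and 207 to 217 CPM at 1 day in water. The nlp genes without nlp-40 summed to 245 ± 8.94 CPM at 5 days and 159 ± 3.53 CPM at 1 day in arsenite, and to 259.6 ± 14.3 CPM at 5 days and 163 ± 5.55 CPM at 1 day in water (SD, n = 2 each). Body muscle markers were lower in 8 of 8 cases in both treatments. Their sum was 1444 to 1474 CPM at 5 days and 5254 to 5479 CPM at 1 day in arsenite, and 1473 to 1675 CPM at 5 days and 5260.1 to 5372 CPM at 1 day in water. Of 10 tested embryo markers, 3 were higher and 7 lower in arsenite, and 2 were higher and 7 lower in water. The T-box factor genes tbx-37 and tbx-38 were higher in both treatments, by 1.35 and 1.85 in arsenite and by 1.17 and 1.97 in water on the log2 scale. The embryo markers summed to 48.3 to 51.5 CPM at 5 days and 111 to 113 CPM at 1 day in arsenite, and to 47.2 to 53.4 CPM at 5 days and 103 to 107.8 CPM at 1 day in water. Most of this sum lay in pha-4, elt-1, unc-120 and hlh-1, with means of 32.7, 28.4, 22.7 and 9.12 CPM in water at 1 day. There tbx-37 and tbx-38 averaged 1.22 and 1.96 CPM. Whether the sum follows the number of embryos was not tested. The part of these shifts between tissues in the nlp levels was not tested.

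**Figure D4:**
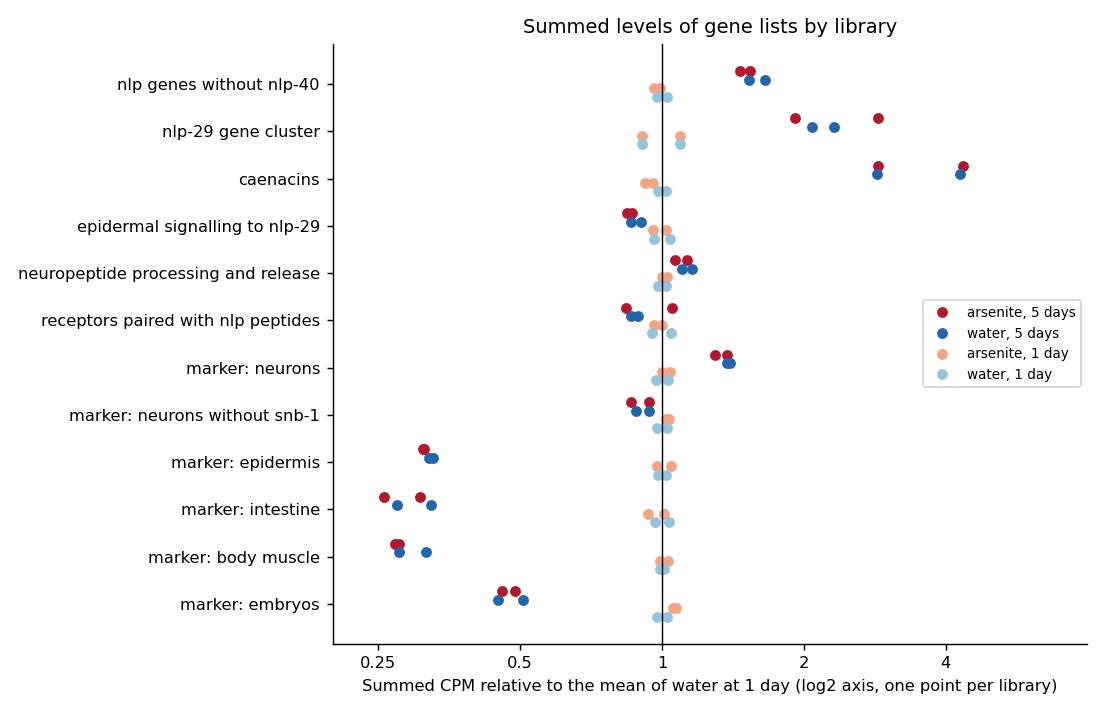
Summed CPM of each gene list in each library, relative to the mean of the water libraries at 1 day, on a log2 axis; colours mark the 4 groups and the line at 1 marks the mean of water at 1 day. The 5-day points lie right of the line for the nlp genes without nlp-40 (1.46 to 1.66), the nlp-29 array (1.92 to 2.88), the caenacins (2.86 to 4.35) and all neuron markers (1.29 to 1.4), and left of it for the neuron markers without snb-1 (0.858 to 0.941) and the markers of epidermis, intestine, body muscle and embryos.

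The comparison of arsenite with water asked whether nlp genes respond to the arsenite treatment at either age. None of the 65 tested members passed at 5 days, at 1 day, in the average over ages, or in the difference between the ages (edgeR's quasi-likelihood test, smallest adjusted p = 0.9994, 1, 0.9999 and 0.9999). Over all 14449 genes 0.0138% were called at 5 days and 0% in each of the other 3 comparisons. At an unadjusted p under 0.05 there were 2 members at 5 days, 4 at 1 day, 2 in the average and 2 in the difference, against 3.97%, 1.65%, 2.85% and 2.55% of all genes. DESeq2, limma voom and a fit that paired adjacent library numbers within an age also called none. The median log2 fold change of the members was -0.12 at 5 days and -0.05 at 1 day, with a range over single members of -0.92 to 1.18 at 5 days and of -2.36 to 1.58 at 1 day.

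At 5 days more members lay below than above their water level. A positive fold change was found for 19 of 65 members, against 48.6% of all genes, and both arsenite libraries lay below both water libraries for 17 members and above them for 6, against 15.4% and 14.1% of all genes. At 1 day 26 of 65 were positive, against 49% of all genes, with 12 members below and 7 above without overlap, against 14.2% and 14.3%. No single member passed, so these counts describe 8 libraries and the direction of values that did not reach the threshold.

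None of the array genes passed between arsenite and water. For nlp-29 the log2 fold change was -0.10 at 5 days (95% interval -0.45 to 0.26) and -0.18 at 1 day (-0.63 to 0.27). For nlp-27, nlp-28, nlp-30 and nlp-31 the values were 0.16, 0.33, -0.19 and 0.24 at 5 days, and 0.23, -0.14, 0.29 and -0.15 at 1 day. With 1 library left out, the values of nlp-27 to nlp-31 at 5 days and those of nlp-28, nlp-29 and nlp-31 at 1 day changed sign. For nlp-34 the arsenite libraries were higher at 5 days (0.58, interval -0.07 to 1.24), while at 1 day 1 count against 5 gave a ratio of 0.193 (95% interval 0.00408 to 1.72).

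Of the members with the smallest p at 5 days, the egg-laying inhibitor nlp-7 had 1.51 and 2.25 CPM in arsenite and 3.29 and 2.27 CPM in water (log2 fold change -0.57, 95% interval -1.12 to -0.03). The arsenite libraries lay below the water libraries for nlp-7. The same was true of nlp-68, with 1.06 and 1.26 CPM in arsenite and 1.5 and 2.06 CPM in water (-0.62, interval -1.22 to -0.01), and of nlp-1 (-0.46, interval -0.96 to 0.04). Each had an edgeR adjusted p of 0.9994.

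At 1 day the smallest p was that of nlp-69, with 19 and 25 counts in arsenite and 6 and 8 counts in water (log2 fold change 1.58, 95% interval 0.63 to 2.54, edgeR adjusted p = 1). At 5 days the same gene had 22 and 26 counts in arsenite and 11 and 20 counts in water (0.65), so both arsenite libraries exceeded both water libraries at each age. In the average over ages it again had the smallest p (1.11, edgeR adjusted p = 0.9999). Its age comparison passed in water (1.23, edgeR adjusted p = 0.0353) and not in arsenite (0.29, edgeR adjusted p = 0.506). The water call was lost without the second 5-day water library (0.71, edgeR adjusted p = 0.357), without the first or second 1-day water library (edgeR adjusted p = 0.132 and 0.0912) and with DESeq2 and limma voom (adjusted p = 0.124 and 0.0585).

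The genes with the next smallest p at 1 day, nlp-36 and nlp-12, lay lower in arsenite. For nlp-36 the libraries held 5.85 and 5.44 CPM in arsenite and 6.89 and 7.44 CPM in water (log2 fold change -0.35, 95% interval -0.64 to -0.05), and at 5 days arsenite and water overlapped (-0.01). For nlp-12 they held 0.312 and 0.525 CPM in arsenite and 1.01 and 0.635 CPM in water (-0.95, interval -1.82 to -0.07), and again the 5-day libraries overlapped (0.09). In the average over ages nlp-39 and nlp-55 followed nlp-69, at -1.32 and 0.33 (edgeR adjusted p = 0.9999), the value of nlp-39 resting on 1 count in arsenite and 6 in water at 1 day. In the difference between the ages the smallest p belonged to nlp-43, nlp-34 and nlp-12, at -0.80, 2.69 and 1.04 (edgeR adjusted p = 0.9999). None of the caenacins, of the signalling, processing or receptor genes, or of the tissue markers was called in an arsenite comparison.

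**Figure D5:**
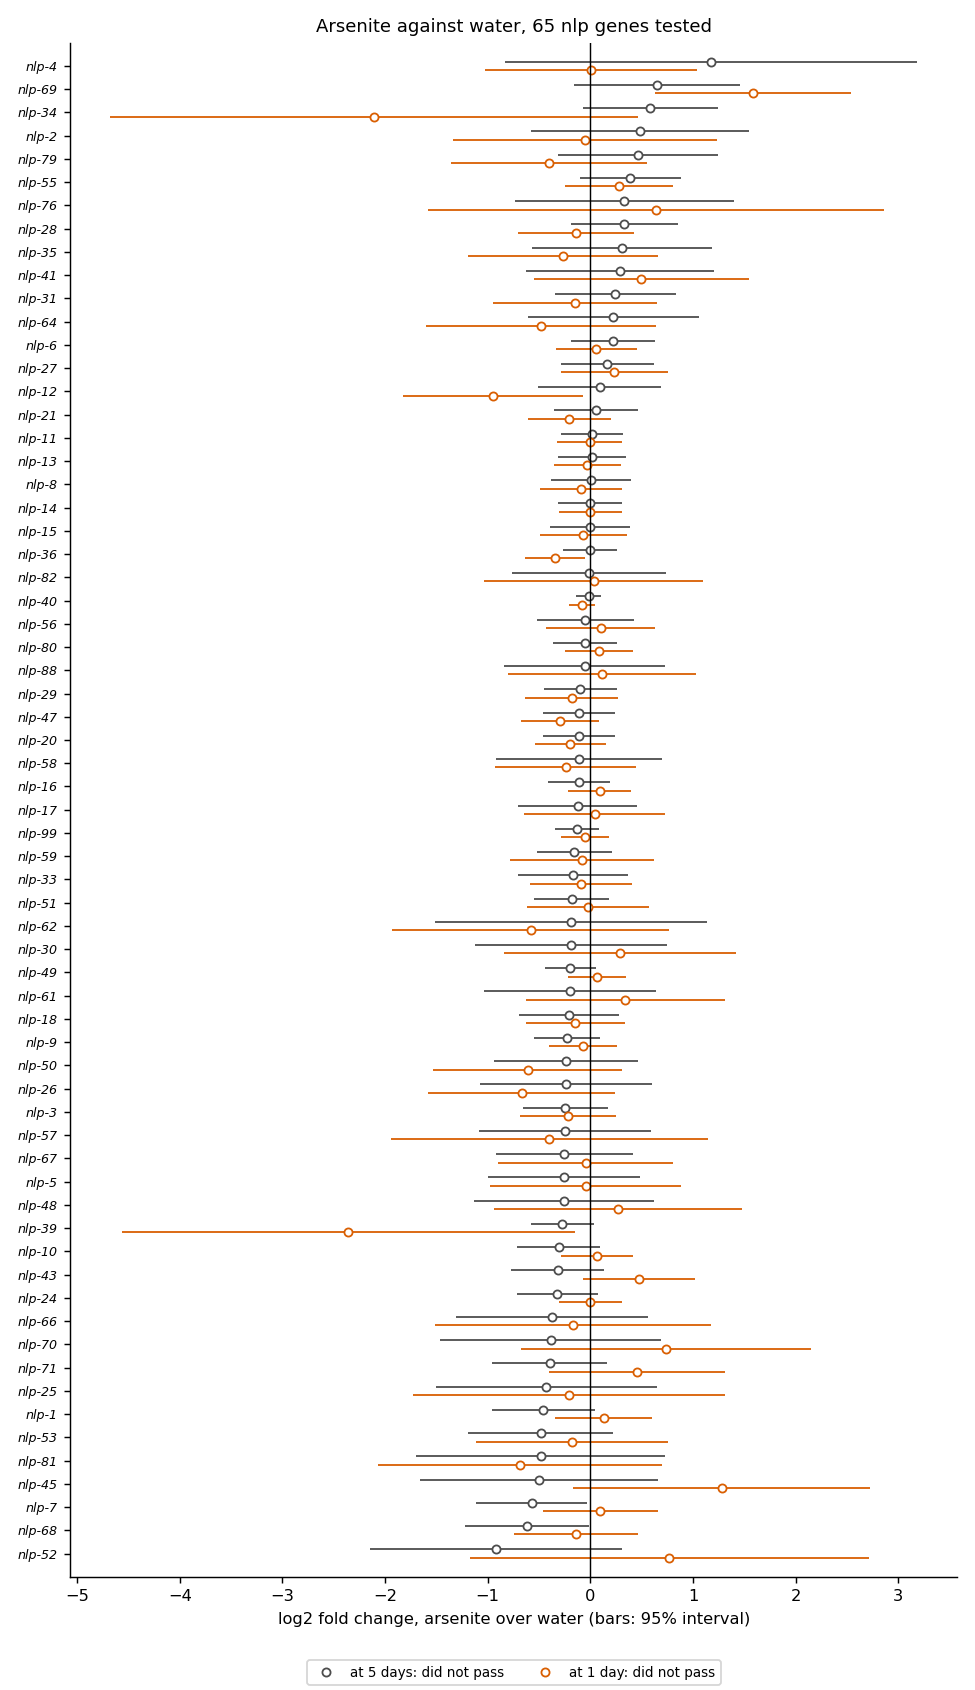
Log2 fold change of arsenite over water for each of the 65 nlp genes tested, at 5 days (grey) and at 1 day (orange), with bars for the 95% interval; genes are ordered by the change at 5 days and every point is open because none passed. The intervals of nlp-39 and nlp-34 at 1 day are wide, with 1 count each in arsenite, and nlp-69 at 1 day is the point furthest to the right.

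The 13 members that were not tested had at most 10 counts in any library. They were nlp-19, nlp-22, nlp-23, nlp-32, nlp-46, nlp-60, nlp-63, nlp-78, nlp-89, nlp-90, nlp-91, nlp-101 and nlp-119. Their totals over the 8 libraries ran from 0 for nlp-90 to 59 for nlp-89. The gene nlp-22, known for the quiescence of larvae through the RIA neurons, had 1 and 1 counts in arsenite at 5 days, 0 and 0 in water at 5 days, 1 and 0 in arsenite at 1 day and 1 and 0 in water at 1 day. At this depth a count of 0 allows up to 3 counts in a library, so expression of these genes below that was not detectable, which does not show it to be absent.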

How the data were processed

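The authors sequenced messenger RNA libraries of whole worms, per the labels' protocols. Read counts per gene, deposited as whole numbers, were made with CASAVA 1.7, STAR 2.4.1d and featureCounts 1.4.6-p4 on WBcel235, per the submitters' processing notes. The sources used here do not name the strand setting or the rule for multi-mapping reads. A second deposited table of RPKM values was not used. Totals ran from 21598326 to 27317490 counts per library.

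The nlp genes were found by symbol. The members, the gene lists and the tests were chosen with earlier results of these data known. Counts were filtered by filterByExpr (minimum count 10, minimum total 15), scaled by TMM and fitted with edgeR 4.0.16 (R 4.3.3) as 4 group means over 8 libraries, using the robust quasi-likelihood test with Benjamini-Hochberg adjustment over 14449 genes. The p-values measure the spread between libraries, which may be technical. Intervals of few-count ratios are exact Poisson, cover counting error only and are given where a group had 10 counts or fewer. RPKM was computed from the counts and the merged exon length of the annotation.

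Members described in every library were the epidermal set nlp-24 to nlp-34, a set of members with known roles, the 8 other members of largest rise in water with at least 1 CPM in one group, and the 3 of smallest p in each arsenite comparison. Besides nlp-24 and nlp-10, no member above that level fell past the test. Gene lists covered the caenacins, signalling to nlp-29, peptide processing, receptors and markers of 5 tissues. Alternatives were DESeq2 size factors, the DESeq2 1.42.0 Wald test, limma 3.58.1 voom, no filter on low counts, a fit to the libraries of each comparison alone, each library left out in turn and, for the arsenite comparisons, adjacent library numbers as a term. The fit was also run on simulated counts with 200 changed genes. The outcome of that run is not given here, and no call in the text rests on it.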

Additional observations from a re-analysis of the deposited data

How the results depend on the processing

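With DESeq2, calls between the ages over all genes went from 8616 to 7358 in arsenite and from 8685 to 7414 in water. The count of nlp genes called between the ages moved by more than 1.5 times with DESeq2, to 23 in arsenite and 25 in water. With 1 library left out it ran from 25 to 34 in arsenite and from 25 to 41 in water, and the arsenite comparisons kept a count of 0 in every alternative (0 to 0). Of the log2 fold changes named in the text, recomputed under every alternative, 1385 values kept direction and side of the threshold, 84 lost the call, 3 gained it and 24 changed sign. Every sign change came from leaving out 1 library, and the cause was not tested. For 5 days against 1 day, the values so obtained ran in water from -0.36 to 0.68 for nlp-26, -0.024 to 0.63 for nlp-28, -0.010 to 0.30 for nlp-1, -0.048 to 0.18 for nlp-14, -0.29 to 0.42 for nlp-18 and -0.026 to 0.20 for nlp-20. In arsenite they ran from -0.71 to 0.15 for nlp-33, -0.37 to 0.21 for nlp-7, -0.024 to 0.12 for nlp-14 and -0.11 to 0.23 for nlp-18. For arsenite against water at 5 days they ran from -0.29 to 0.49 for nlp-27, -0.090 to 0.69 for nlp-28, -0.26 to 0.032 for nlp-29, -0.56 to 0.27 for nlp-30 and -0.22 to 0.57 for nlp-31, and at 1 day from -0.33 to 0.024 for nlp-28, -0.49 to 0.24 for nlp-29 and -0.47 to 0.12 for nlp-31. In RPKM nlp-40 made up 24.1%, 23.3%, 31.5% and 32% of the summed nlp level in arsenite at 5 days, water at 5 days, arsenite at 1 day and water at 1 day. Without length scaling these shares moved to 30.3%, 29.4%, 36.3% and 37.1%. Between the ages no paired analysis was possible because the labels give no replicate numbers and tie no library of 1 age to one of the other. Within an age, the fit with adjacent library numbers as a term called 0 members between arsenite and water, though the labels do not say that such libraries are pairs. With 2 libraries a group and few counts for many members, the absence of a call does not show that a gene was unchanged.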
